A study of Mus musculus with 6 samples.

Results

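The genes described here are 10 genes known from foam cells and lipid-associated macrophages, and they were measured in whole aortas of mice whose blood-forming cells did or did not carry an altered septin-2. They were taken by symbol from the deposited gene tables, and all 10 have a row among 18749 and enter the test of 14466 genes. Olr1, Msr1 and Cd36 encode receptors for modified lipoproteins, Soat1 and Abca1 handle the cholesterol that has been taken up, and Spp1, Gpnmb, Lgals3, Fabp5 and Cd9 mark macrophages that have met lipid. The tested group consisted of 3 Apoe-/- mice given marrow of the genotype Apoe-/-Sept2C111A, called Sept2C111A recipients here. It was set against 3 Apoe-/- mice given Apoe-/- marrow, called Apoe recipients. Both groups received angiotensin II for 28 days, and both hosts and both marrows lacked apolipoprotein E. The name Sept2C111A denotes a cysteine exchanged for alanine, and the series title ties the study to nitrosylated septin-2 of macrophages in aortic aneurysm. A marrow graft replaces blood-derived cells, while smooth muscle, endothelium and most fibroblasts of the wall remain those of the host. The labels give neither the share of donor cells nor the age or sex of the mice.

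Macrophages in an artery wall take up oxidised and otherwise altered lipoproteins through scavenger receptors. The cholesterol released from them is either esterified and stored in droplets, which gives the cell its foamy look, or handed to carrier proteins outside the cell. In single-cell studies of atherosclerosis and of fat tissue, lipid-laden macrophages are recognised by osteopontin, glycoprotein NMB, galectin-3, CD9 and fatty-acid-binding proteins. None of these genes is restricted to macrophages: smooth muscle cells can make osteopontin and galectin-3, and CD36 is also abundant in adipocytes, capillary endothelium and heart muscle.

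The libraries held 17082719 to 18736010 expected counts in Sept2C111A recipients and 18472362 to 20494928 in Apoe recipients. Levels are CPM, counts scaled to 1000000 per library on TMM-adjusted totals, and log2 ratios are the fold changes that edgeR fitted, Sept2C111A over Apoe recipients. The 7 smooth muscle markers summed to between 15551 and 23316 CPM in Sept2C111A recipients and between 5775 and 18265 CPM in Apoe recipients, with none at 0. In other cell types 3 libraries stood apart. Apoe recipient 1 held 2990 CPM of 10 neutrophil markers, against 93.5 and 339 CPM in Apoe recipients 2 and 3. Apoe recipient 3 held the least smooth muscle and adipocyte signal. Sept2C111A recipient 3 held 1507 CPM of 6 striated muscle markers, mostly the heart myosin Myh6, against at most 92.0 CPM in any other library. The libraries differed within groups far beyond counting noise, and p-values measure the spread between these mice only.

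Of the 10 genes, 4 were lower in every Sept2C111A recipient than in any Apoe recipient: Olr1, Msr1, Soat1 and Spp1. Cd36 and Gpnmb had higher means in Sept2C111A recipients, and Gpnmb and Spp1, both known as lipid-associated markers, differed in opposite directions. Lgals3 and Abca1 had lower means with overlapping groups, and Fabp5 and Cd9 hardly differed in mean. By edgeR's quasi-likelihood test 0 of the 10 genes passed an adjusted p of 0.05 over 14466 genes, as was so for 0% of all genes tested. At an unadjusted p under 0.05, 5 of the 10 were lower (8.83% of all genes) and 0 were higher (6.17% of all genes). DESeq2, run as another test, called 4 of the 10 lower, where it called 2.88% of all genes lower, and 0 higher, where it called 1.09% of all genes higher. The 4 are those whose groups did not overlap, a state that 11.9% of all genes showed in that direction and 11.2% in the other. The median log2 ratio was -0.67 over the 10 genes and 0.00 over all genes tested. The tissue is bulk, so fewer cells of a type and less RNA per cell cannot be told apart in any of these values.

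**Figure D1:**
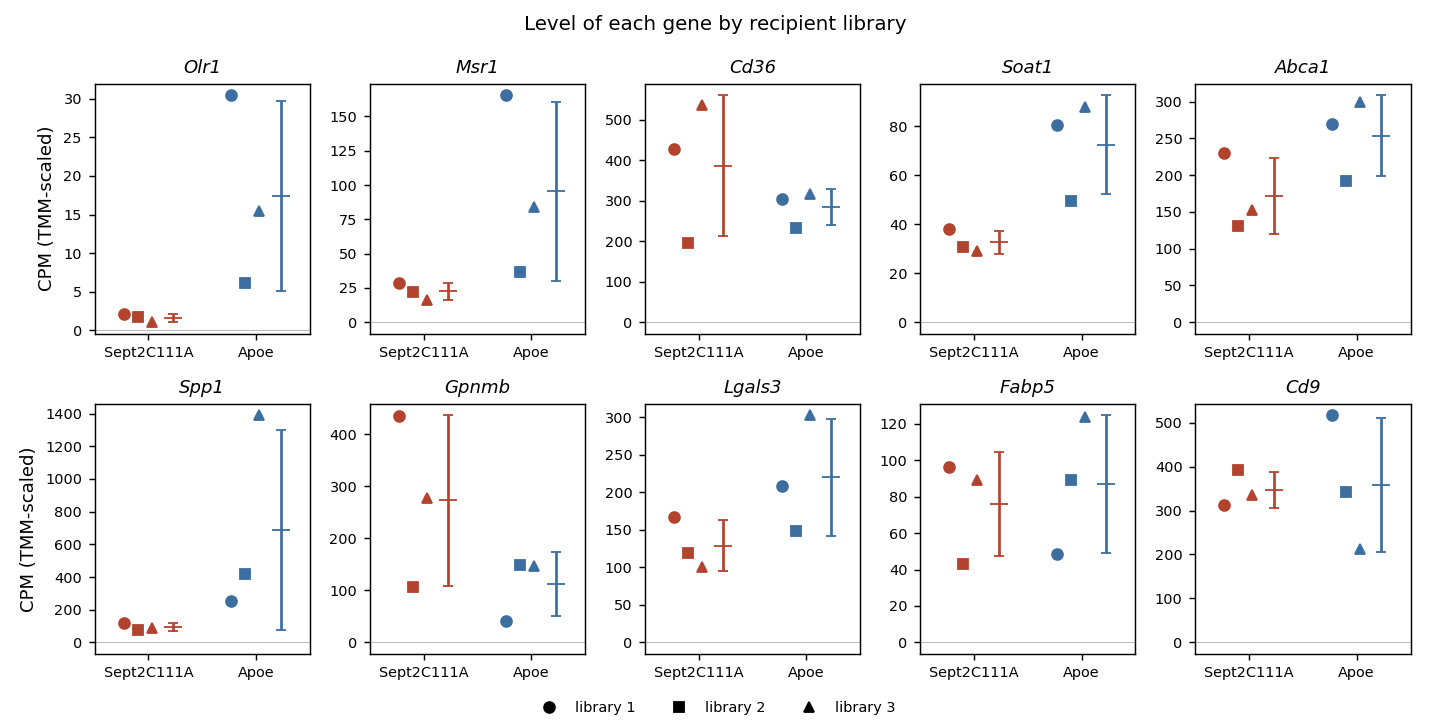
Level of each gene in each library, in CPM on TMM-scaled totals, with a separate vertical axis from 0 for each gene. Red points are Sept2C111A recipients, blue points Apoe recipients, the shape gives the library number, and the bar beside each group is its mean ± SD over 3 libraries. Olr1, Msr1, Soat1 and Spp1 show no overlap between the groups.

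Among the receptors for modified lipoproteins, Olr1 and Msr1 were lower in Sept2C111A recipients and Cd36 was not. Olr1 (chromosome 6, 129485244 to 129507165, minus strand, mm10) encodes LOX-1, a lectin-like receptor for oxidised low-density lipoprotein. Its level was 2.10, 1.71 and 1.06 CPM in Sept2C111A recipients 1, 2 and 3, against 30.5, 6.10 and 15.5 CPM in Apoe recipients 1, 2 and 3. The lowest Apoe recipient thus lay above the highest Sept2C111A recipient. The means of 1.62 ± 0.528 and 17.4 ± 12.3 CPM (SD, n = 3 each) differed 10.7-fold, a log2 ratio of -3.41 (SE 0.64). The edgeR adjusted p was 0.316 and the DESeq2 adjusted p was 2.69e-05, within a range of 2.69e-05 to 0.925 over 14 alternative fits, not counting DESeq2 refits without libraries. Olr1 rested on 19 to 40 reads per library in Sept2C111A recipients, so counting error adds to the spread there.

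Msr1 (chromosome 8, 39581685 to 39642673, minus strand) encodes scavenger receptor A, which binds acetylated and oxidised lipoproteins. It stood at 28.5, 22.3 and 16.3 CPM in Sept2C111A recipients, against 166, 36.8 and 83.8 CPM in Apoe recipients. The groups did not overlap, but Apoe recipient 2 was much closer to the Sept2C111A recipients than to Apoe recipient 1. The means of 22.4 ± 6.11 and 95.4 ± 65.2 CPM (SD, n = 3 each) gave a log2 ratio of -2.09 (SE 0.55), with an edgeR adjusted p of 0.316 and a DESeq2 adjusted p of 0.00877 (0.00877 to 0.925 over 14 alternative fits). Olr1 and Msr1 were both highest in Apoe recipient 1, then Apoe recipient 3, then Apoe recipient 2, the order in which the neutrophil markers also ran. These markers summed to between 22.4 and 37.2 CPM in Sept2C111A recipients and between 93.5 and 2990 CPM in Apoe recipients. Of the 8 tested, 8 had negative fold changes and DESeq2 called 6 lower (2.88% of all genes). Of the 10 neutrophil markers, 3 were at 0 in Sept2C111A recipient 1 (Ngp, Ltf and Camp) and 1 in Sept2C111A recipient 2 (Camp). Without Apoe recipient 1 the log2 ratios were -2.71 for Olr1 and -1.42 for Msr1, and DESeq2 no longer called Msr1 (adjusted p = 0.0664), nor did it without Sept2C111A recipient 3 (adjusted p = 0.152). The 6 platelet and erythroid markers ran in the same order within Apoe recipients, at 1492, 72.2 and 879.8 CPM in Apoe recipients 1, 2 and 3, beside 531, 154 and 178 CPM in Sept2C111A recipients, with none at 0. The part of neutrophil or blood content in either difference was not tested.

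Cd36 (chromosome 5, 17781690 to 17888801, minus strand) encodes a receptor for oxidised lipoproteins and a carrier of long-chain fatty acids. It stood at 429, 195 and 536 CPM in Sept2C111A recipients, against 305, 232 and 316 CPM in Apoe recipients. The Sept2C111A recipients held both the 2 highest values and the lowest one, so the groups overlapped. The means were 387 ± 175 and 284 ± 45.4 CPM (SD, n = 3 each), with a log2 ratio of 0.44 (SE 0.38, edgeR adjusted p = 0.562). The highest value came from Sept2C111A recipient 3, the library with striated muscle transcripts, and the fold change was 0.15 on the log2 scale without it. The 7 endothelial markers ran in a similar way, with sums of 1232, 597 and 1352 CPM in Sept2C111A recipients and 718, 669 and 1246 CPM in Apoe recipients. The parts of heart muscle and of endothelium in the Cd36 level were not tested. Relative to Cd36 in the same library, Olr1 was at 0.00490, 0.00880 and 0.00197 in Sept2C111A recipients and at 0.0999, 0.0263 and 0.0490 in Apoe recipients, with no overlap. The same ratio for Msr1 was 0.0665, 0.115 and 0.0304 in Sept2C111A recipients and 0.543, 0.158 and 0.265 in Apoe recipients, again with no overlap. An exact two-sided permutation test gave p = 0.1 for each ratio, which is the smallest value that 3 against 3 libraries allow, and the pairs of genes were picked with the levels known.

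Of the genes for stored and exported sterol, Soat1 differed more than Abca1. Soat1 (chromosome 1, 156424525 to 156474331, minus strand) encodes acyl-CoA:cholesterol acyltransferase 1, which makes the cholesteryl esters of foam cell droplets. It stood at 38.1, 30.5 and 29.0 CPM in Sept2C111A recipients, against 80.3, 49.5 and 87.6 CPM in Apoe recipients. The groups were apart, and the Sept2C111A recipients lay close together. Means of 32.5 ± 4.85 and 72.5 ± 20.2 CPM (SD, n = 3 each) gave a log2 ratio of -1.16 (SE 0.24), an edgeR adjusted p of 0.316 and a DESeq2 adjusted p of 0.00466 (0.00466 to 0.925 over 14 alternative fits). DESeq2 did not call it without Apoe recipient 1 (adjusted p = 0.0533) or without Sept2C111A recipient 3 (adjusted p = 0.115). Soat1 counts were fractional in all 6 libraries, so some of its reads are shared with other rows.

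Abca1 (chromosome 4, 53030787 to 53159895, minus strand) encodes the transporter that passes cholesterol to apolipoprotein A-I and is a target of the sterol sensor LXR. It stood at 229.8, 131 and 153 CPM in Sept2C111A recipients, against 269, 192 and 299.6 CPM in Apoe recipients. Sept2C111A recipient 1 lay above Apoe recipient 2, so the groups overlapped in that one pair. The means were 171 ± 51.8 and 254 ± 55.2 CPM (SD, n = 3 each), with a log2 ratio of -0.57 (SE 0.27, edgeR adjusted p = 0.365). Within a library, the ratio of Soat1 to Abca1 was 0.166, 0.232 and 0.190 in Sept2C111A recipients and 0.298, 0.257 and 0.292 in Apoe recipients. These did not overlap, and the exact permutation p was again 0.1, the smallest possible, for a pair picked with the levels known. Soat1 by itself was already apart between the groups, so the ratio is no separate support.

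Spp1 and Gpnmb, a pair often named together as signs of lipid-associated macrophages, differed in opposite directions in mean. Spp1 (chromosome 5, 104435118 to 104441050, plus strand) encodes osteopontin, a secreted phosphoprotein that binds integrins and CD44. It stood at 118, 74.7 and 87.9 CPM in Sept2C111A recipients, against 254, 419 and 1390.4 CPM in Apoe recipients. All Sept2C111A recipients were below all Apoe recipients, and Apoe recipient 3 was far above the others. The means of 93.6 ± 22.4 and 688 ± 614 CPM (SD, n = 3 each) differed 7.34-fold, a log2 ratio of -2.88 (SE 0.67). The edgeR adjusted p was 0.316 and the DESeq2 adjusted p was 0.000612 (0.000612 to 0.925 over 14 alternative fits). Without Apoe recipient 3 the log2 ratio was -1.84. That library also held the highest sum of macrophage markers, at 4090 CPM, and the lowest of smooth muscle markers, at 5775 CPM, and their part in its Spp1 level was not tested. DESeq2 called Spp1 in each of the 6 fits with 1 library left out, as it did Olr1.

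Gpnmb (chromosome 6, 49036546 to 49070929, plus strand) encodes glycoprotein NMB, a transmembrane protein of lysosome-rich macrophages. It stood at 435, 107 and 278 CPM in Sept2C111A recipients, against 40.4, 149 and 148 CPM in Apoe recipients. Sept2C111A recipients 1 and 3 lay above all Apoe recipients, while Sept2C111A recipient 2 lay below 2 of them. The means were 273 ± 164 and 112 ± 62.3 CPM (SD, n = 3 each), with a log2 ratio of 1.28 (SE 0.65), an edgeR adjusted p of 0.377 and a DESeq2 adjusted p of 0.253 (0.253 to 0.925 over 14 alternative fits). The ratio of Gpnmb to Spp1 within a library, which does not depend on library scaling, was 3.67, 1.43 and 3.16 in Sept2C111A recipients and 0.159, 0.356 and 0.106 in Apoe recipients. Gpnmb thus had more counts than Spp1 in each Sept2C111A recipient and fewer in each Apoe recipient. The exact permutation p was 0.1, the smallest possible, for a ratio chosen with the levels known.

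Promoter sequence is shown for Olr1 and Spp1, which had the largest fold changes, and for Gpnmb, whose mean differed the other way. The sequences are RefSeq windows of build GRCm38.p6, from 250 bases before to 50 bases after the annotated start, 5′ to 3′ on the strand of the gene, and 8 of the 10 genes matched an entry, all but Fabp5 and Msr1. Capitals mark the letters TGANTCA, the core bound by AP-1 factors, searched on both strands together with CACGTG and with AGGTCA repeated after 1 base or after 4 bases.
Olr1, chr6:129507116-129507415, minus strand: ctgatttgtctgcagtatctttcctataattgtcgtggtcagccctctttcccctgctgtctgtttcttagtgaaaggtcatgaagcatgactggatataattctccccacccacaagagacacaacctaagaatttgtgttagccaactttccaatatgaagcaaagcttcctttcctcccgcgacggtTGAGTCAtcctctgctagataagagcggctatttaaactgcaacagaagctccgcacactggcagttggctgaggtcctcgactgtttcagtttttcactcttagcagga
Spp1, chr5:104434861-104435160, plus strand: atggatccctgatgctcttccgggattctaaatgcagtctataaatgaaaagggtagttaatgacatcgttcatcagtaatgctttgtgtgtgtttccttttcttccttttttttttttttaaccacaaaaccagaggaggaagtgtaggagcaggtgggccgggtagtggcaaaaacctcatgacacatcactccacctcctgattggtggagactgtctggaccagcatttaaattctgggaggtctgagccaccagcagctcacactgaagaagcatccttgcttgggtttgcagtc
Gpnmb, chr6:49036268-49036567, plus strand: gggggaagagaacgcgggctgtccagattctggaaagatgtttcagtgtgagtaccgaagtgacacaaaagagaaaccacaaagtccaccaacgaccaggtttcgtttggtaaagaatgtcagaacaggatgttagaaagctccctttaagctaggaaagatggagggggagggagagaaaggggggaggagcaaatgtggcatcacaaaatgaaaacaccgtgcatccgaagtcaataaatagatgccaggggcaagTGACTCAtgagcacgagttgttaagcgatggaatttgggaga
Olr1 held TGAGTCA from base 191 to base 197 of its window and Gpnmb held TGACTCA from base 259 to base 265, while this Spp1 window held none of the motifs. TGANTCA occurs in 7.81% of the 32851 RefSeq promoter windows of this length. Of the other entries, the Abca1 window held CACGTG, which is found in 7.15% of windows, and the repeats of AGGTCA, found in 0.0396% of windows with the shorter spacer and in 0.0152% with the longer, were in none of the 9 windows of the set. The AP-1 letters were thus present in a gene lower and in a gene with a higher mean in Sept2C111A recipients. The GC content was 46.0% for the Olr1 window, 45.3% and 36.7% for the 2 Spp1 windows and 62.0% for the Soat1 window, beside a median of 52.7% over all windows.

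Lgals3, Fabp5 and Cd9 gave smaller differences. Lgals3 (chromosome 14, 47367751 to 47386160, plus strand) encodes galectin-3, a sugar-binding protein of macrophages. It stood at 167, 119 and 101 CPM in Sept2C111A recipients, against 209, 149 and 303 CPM in Apoe recipients, and Sept2C111A recipient 1 lay above Apoe recipient 2. The means of 129 ± 34.2 and 220.1 ± 77.8 CPM (SD, n = 3 each) gave a log2 ratio of -0.77 (SE 0.31, edgeR adjusted p = 0.331), and DESeq2 did not call it (adjusted p = 0.192, with 0.172 to 0.949 over 14 alternative fits). Within a library, Spp1 per Lgals3 was 0.709, 0.626 and 0.873 in Sept2C111A recipients and 1.22, 2.82 and 4.59 in Apoe recipients, with no overlap. That pair too was picked with the levels known, and Spp1 by itself was already apart between the groups.

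Fabp5 (chromosome 3, 10012548 to 10016607, plus strand) encodes a fatty-acid-binding protein of epidermis and macrophages. It stood at 96.1, 43.2 and 89.0 CPM in Sept2C111A recipients, against 48.4, 89.0 and 124 CPM in Apoe recipients, which overlapped fully. Its log2 ratio was -0.19 (SE 0.42, edgeR adjusted p = 0.832). Cd9 (chromosome 6, 125460266 to 125494791, minus strand) encodes a tetraspanin found on many cells of the wall besides macrophages. It stood at 312, 393 and 335 CPM in Sept2C111A recipients, inside the range of 517, 343 and 212 CPM in Apoe recipients. Its log2 ratio was -0.04 (SE 0.33, edgeR adjusted p = 0.954). Both signs are unstable: limma-voom and 2 fits without 1 library turned that of Fabp5, and the replicate block and 3 fits without libraries turned that of Cd9.

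**Figure D2:**
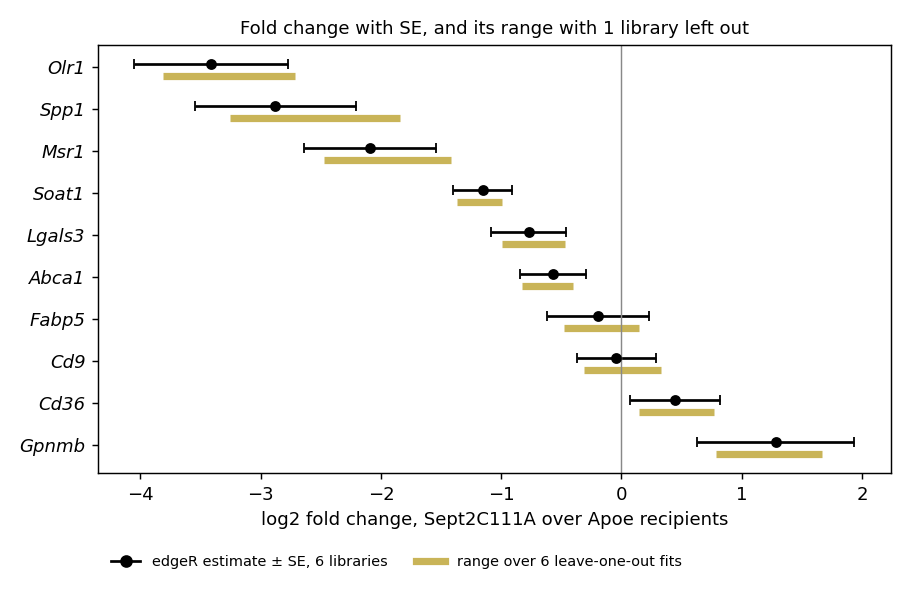
Log2 ratio of each gene, Sept2C111A over Apoe recipients. Black points and bars are the edgeR estimate ± SE from 6 libraries, and yellow bars span the 6 fits that each left out 1 library. Olr1, Spp1, Msr1, Soat1, Lgals3 and Abca1 stay below 0 over those fits, Gpnmb and Cd36 stay above 0, and Fabp5 and Cd9 cross it.

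Spread within a group differed from gene to gene. The coefficient of variation of Spp1 was 23.9% in Sept2C111A recipients and 89.3% in Apoe recipients, that of Olr1 32.5% and 70.9%, and that of Msr1 27.3% and 68.4%. Cd36 showed the reverse, with 45.2% in Sept2C111A recipients and 15.97% in Apoe recipients, and Gpnmb varied widely in both, with 60.0% and 55.5%. Apoe recipient 3 held the highest value of 5 of the genes (Spp1, Fabp5, Lgals3, Soat1 and Abca1) and Apoe recipient 1 that of 3 (Olr1, Msr1 and Cd9). The high values of the Apoe group thus came from different animals for different genes. Sept2C111A recipients 2 and 3 each held the lowest value of 4 genes.

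**Figure D3:**
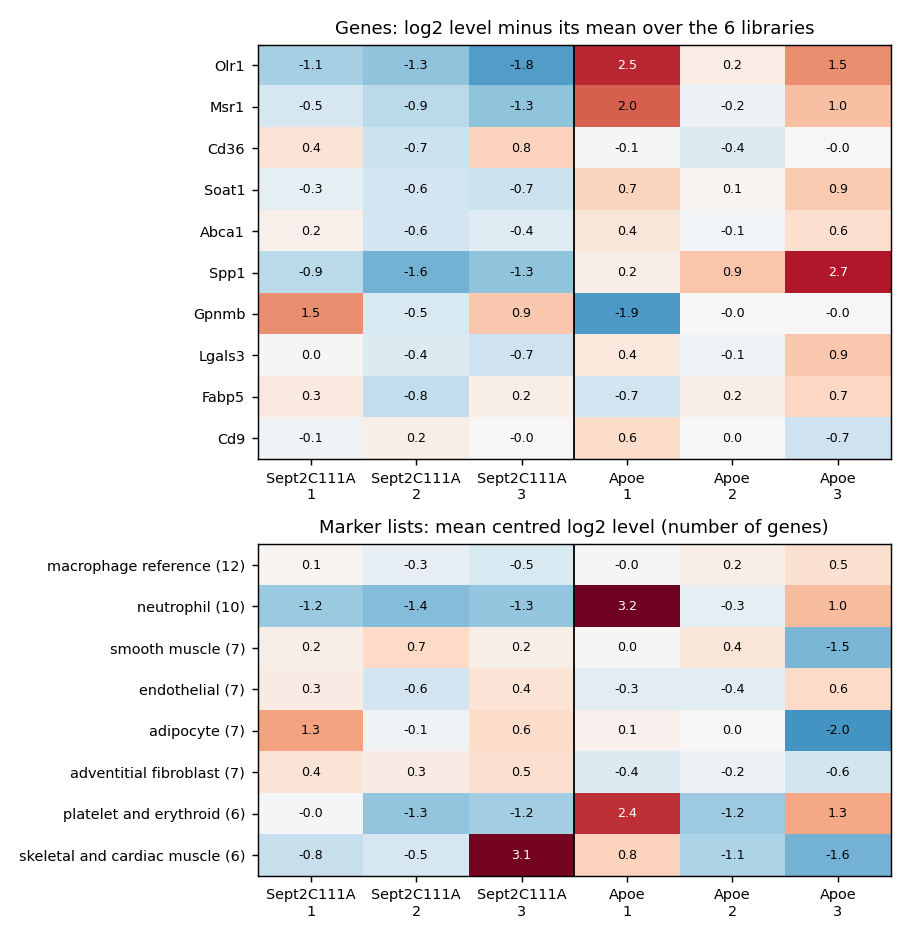
Log2(CPM + 0.5) in each library, relative to the mean over the 6 libraries, for the 10 genes (top) and averaged over each list of cell type markers (bottom), with the number of genes in brackets. Red is above and blue below the mean, each cell prints its value, and a black line separates Sept2C111A recipients (left) from Apoe recipients (right). Olr1 and Msr1 peak in Apoe recipient 1, where the neutrophil markers do, and Spp1 peaks in Apoe recipient 3.

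Per kilobase of annotated exon, Cd9 had the highest mean level of the set in Sept2C111A recipients, at 170 ± 20.3 CPM per kb, followed by Cd36 at 108 ± 48.6, Lgals3 at 69.4 ± 18.4, Spp1 at 56.8 ± 13.6 and Gpnmb at 41.9 ± 25.2 CPM per kb (SD, n = 3). In Apoe recipients Spp1 was highest, at 417 ± 373 CPM per kb, followed by Cd9 at 175 ± 74.8, Lgals3 at 118 ± 41.9 and Cd36 at 79.2 ± 12.6 CPM per kb (SD, n = 3). Olr1 was the lowest of the set in both groups, at 0.455 ± 0.148 CPM per kb in Sept2C111A recipients and 4.86 ± 3.44 CPM per kb in Apoe recipients. Without Apoe recipient 3, Cd9 ranked above Spp1 in Apoe recipients, at 210.3 and 203.96 CPM per kb. Among neighbours in the order of Sept2C111A recipients, the pairs Cd9 and Cd36, Abca1 and Msr1, and Soat1 and Olr1 differed by more than the larger of their SDs, and the other 6 pairs did not. In Apoe recipients this held for Cd36 and Abca1, and the other 8 pairs did not differ beyond it. The exon length used is the union of all annotated exons of a gene. It can exceed the length of the transcript expressed, so the order depends on the annotation.

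General macrophage genes had fitted log2 ratios between -2.47 (Cd14) and 0.11 (Mertk). Csf1r, the receptor for macrophage colony-stimulating factor, stood at 206, 180.1 and 159 CPM in Sept2C111A recipients, against 144, 223 and 273 CPM in Apoe recipients, and Adgre1, which encodes F4/80, at 84.7, 61.6 and 55.0 CPM against 54.3, 102 and 101 CPM. Both overlapped between the groups, with log2 ratios of -0.23 (SE 0.25) and -0.35 (SE 0.29). Cd68, a lysosomal glycoprotein, did not overlap, at 88.8, 59.0 and 51.3 CPM in Sept2C111A recipients and 98.2, 94.9 and 183 CPM in Apoe recipients, with a log2 ratio of -0.92 (SE 0.33, edgeR adjusted p = 0.316). Fcgr1, a high-affinity receptor for IgG, did not overlap either, at 25.4, 21.9 and 15.1 CPM in Sept2C111A recipients and 81.7, 33.97 and 35.3 CPM in Apoe recipients, with a log2 ratio of -1.27 (SE 0.40). Cd14, a co-receptor for lipopolysaccharide, had a log2 ratio of -2.47 (SE 1.00), which was -0.37 without Apoe recipient 1. Of 12 macrophage genes in all, 11 had a negative fold change, with a median log2 ratio of -0.47, and neither edgeR nor DESeq2 called any. They summed to between 1879 and 2901 CPM in Sept2C111A recipients and between 2251 and 4090 CPM in Apoe recipients, with none at 0.

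Each gene was therefore also expressed relative to the mean log2 level of these 12 genes in its own library. On that scale Spp1 was at -0.04, -0.34 and 0.11 in Sept2C111A recipients and at 1.17, 1.64 and 3.08 in Apoe recipients. Olr1 was at -5.55, -5.43 and -5.72 in Sept2C111A recipients and at -1.86, -4.35 and -3.37 in Apoe recipients. Both therefore stayed apart between the groups, by -2.06 and -2.37 in mean log2 level. Msr1 differed by -1.39 and Soat1 by -0.65, also without overlap, though Apoe recipient 2, at -1.85 for Msr1 and -1.43 for Soat1, came near the highest Sept2C111A values of -2.06 and -1.47. Set against Cd68 alone, the Soat1 difference was -0.23 and the groups overlapped, with Soat1 per Cd68 at 0.429, 0.517 and 0.565 in Sept2C111A recipients and at 0.818, 0.522 and 0.478 in Apoe recipients. Gpnmb was at 1.83, 0.17 and 1.76 in Sept2C111A recipients and at -1.46, 0.15 and -0.15 in Apoe recipients, a difference of 1.74 in which Sept2C111A recipient 2 and Apoe recipient 2 nearly met. The share of all genes whose groups are apart on this scale was not measured, so these separations are a description. The exact two-sided permutation p was 0.1 for these 5 genes, the smallest that the design allows. It was 0.2 for Cd36 and between 0.4 and 0.7 for the other 4, so 10 differences were tested and none could pass 0.05.

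**Figure D4:**
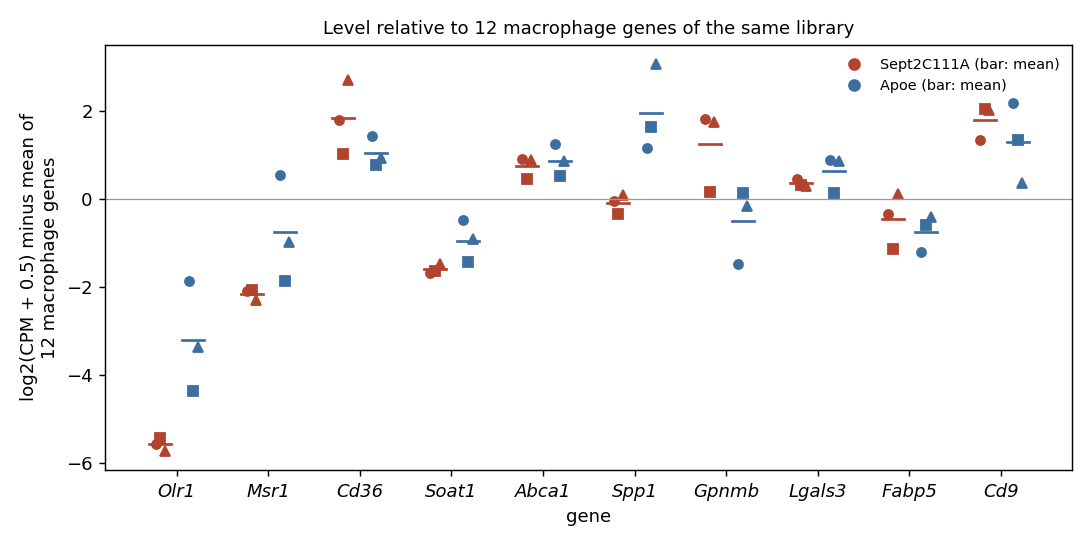
Log2(CPM + 0.5) of each gene minus the mean of the same quantity over 12 macrophage genes of the same library. Red points are Sept2C111A recipients and blue points Apoe recipients, horizontal bars are group means, and the shapes circle, square and triangle stand for libraries 1, 2 and 3. The groups are apart for Olr1, Msr1, Soat1 and Spp1 (lower in Sept2C111A recipients) and narrowly for Gpnmb (higher). The share of all genes apart on this scale was not measured.

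Other genes of lipid handling were described from 7 lists, in which edgeR called 0 genes at an adjusted p of 0.05. Of 20 further genes of lipid-associated macrophages, 16 had negative fold changes (median log2 ratio -0.49). At an unadjusted edgeR p under 0.05, 4 were lower (8.83% of all genes). DESeq2 called 2 lower (2.88% of all genes) and 0 higher (1.09% of all genes). Trem2, the receptor on which the lipid-associated state depends in mice, stood at 29.1, 21.7 and 15.97 CPM in Sept2C111A recipients, against 16.3, 46.9 and 73.1 CPM in Apoe recipients, with a log2 ratio of -1.03 (SE 0.53, edgeR adjusted p = 0.378). Its groups overlapped through Apoe recipient 1, the library in which Gpnmb was also lowest. Mmp12, macrophage elastase, had a log2 ratio of 0.45 (SE 0.63). The genes DESeq2 called were Tyrobp, the adaptor through which TREM2 signals, at a log2 ratio of -1.54 (SE 0.40), and Ctsd, the lysosomal protease cathepsin D, at -0.71 (SE 0.25), both named because they were called. With 1 library left out at a time, DESeq2 called Tyrobp in 2 of 6 fits, losing it without Apoe recipient 1 or 3 and without Sept2C111A recipient 2 or 3. It called Ctsd in 3 of 6, losing it without Apoe recipient 3 and without Sept2C111A recipient 2 or 3, and not with the replicate block (adjusted p = 0.142). Tyrobp stood at 72.5, 45.5 and 44.4 CPM in Sept2C111A recipients and at 234.9, 83.8 and 155 CPM in Apoe recipients 1, 2 and 3, where it ran in the order of the neutrophil markers, and its log2 ratio was -0.63 without Apoe recipients 1 and 3. The part of neutrophil content in it was not tested.

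Among 15 tested uptake receptors, 8 had negative and 7 positive fold changes, with a median log2 ratio of -0.06. Scarb1, the receptor for high-density lipoprotein, had a log2 ratio of -0.27 (SE 0.24). DESeq2 called 1 gene of this list, Scara5, higher (log2 ratio 1.53, SE 0.37), where it called 1.09% of all genes higher. Scara5 was not called by DESeq2 without Sept2C111A recipient 1 (adjusted p = 0.0734) or 3 (adjusted p = 0.159). It is a class A scavenger receptor like Msr1, known as a ferritin receptor of fibroblast-like cells, and the adventitial fibroblast markers ran alongside, at 5230 to 7234 CPM in Sept2C111A recipients and 3117 to 3660 CPM in Apoe recipients, with none of the 7 at 0. All 7 of these markers had positive fold changes, of which DESeq2 called 3 higher (1.09% of all genes). The part of fibroblast content in the Scara5 difference was not tested.

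Of 14 genes of sterol storage and hydrolysis, 8 had negative and 6 positive fold changes (median log2 ratio -0.24), and DESeq2 called 0. The negative ones were Soat2, Nceh1, Lipa, Npc1, Npc2, Plin2, Stard3 and Stard4. The positive ones were Pnpla2, Lipe, Ces1d, Lpl, Dgat1 and Dgat2. Not all of these signs were stable: with 1 library left out, Dgat1 ran from -0.27 to 0.79 and Npc2 from -0.33 to 0.18. Plin2, the droplet coat protein perilipin-2, was at 238 ± 115 CPM in Sept2C111A recipients and 319 ± 127 CPM in Apoe recipients. Nceh1, a hydrolase for cholesteryl esters, had a log2 ratio of -0.65 (SE 0.31), and Lipa, the lysosomal acid lipase, of -0.34 (SE 0.30). Lpl, lipoprotein lipase, went the other way, with a log2 ratio of 0.89 (SE 0.32, edgeR adjusted p = 0.316), and is made in quantity by adipocytes as well. The adipocyte markers summed to between 1285 and 3192 CPM in Sept2C111A recipients and between 490 and 1485 CPM in Apoe recipients, with none of the 7 at 0. All 7 had positive fold changes. The part of adipocyte content in the positive fold changes of this list was not tested. Fabp4, shared by adipocytes, endothelium and macrophages, had a log2 ratio of 0.63 (SE 0.51).

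The list of sterol export genes and LXR targets had no common direction. Of 13 tested genes 5 had negative and 8 positive fold changes, with a median log2 ratio of 0.30. The positive ones were Nr1h3, Nr1h2, Srebf1, Apoc1, Pltp, Scd1, Rxra and the disrupted Apoe gene, so the split does not describe sterol transporters. Of those, Abcg5 and Abcg8 did not enter the test. Abcg1 and, from the set, Abca1 (log2 ratio -0.57) had negative fold changes, both with overlapping groups. Abcg1, which exports cholesterol to high-density lipoprotein, was at 44.0 ± 20.3 CPM in Sept2C111A recipients and 85.4 ± 32.2 CPM in Apoe recipients, with a log2 ratio of -0.96 (SE 0.42, edgeR adjusted p = 0.347). Nr1h3, which encodes LXR alpha, had a log2 ratio of 0.61 (SE 0.31), and Mylip, an LXR target that degrades lipoprotein receptors, of -0.02 (SE 0.26). DESeq2 called 2 genes lower (2.88% of all genes) and 0 higher (1.09% of all genes). These were Arl4c (log2 ratio -1.64, SE 0.34), a small GTPase induced by LXR, and Apoc2 (-3.04, SE 0.76), the cofactor of lipoprotein lipase. Both were named because they were called. Arl4c was at 29.5, 26.7 and 18.6 CPM in Sept2C111A recipients, against 115, 52.0 and 66.1 CPM in Apoe recipients 1, 2 and 3. Within Apoe recipients it ran in the order of the neutrophil markers, and its log2 ratio was -1.06 without Apoe recipients 1 and 3. The part of neutrophil content in Arl4c was not tested. Apoc2 was below 1 CPM in each Sept2C111A recipient. DESeq2 lost Arl4c without Sept2C111A recipient 3 (adjusted p = 0.0508), and Apoc2 without that library or without Apoe recipient 1 or 3.

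Sterol synthesis genes, which cells raise when short of cholesterol, had a median log2 ratio of 0.11 over 15 genes, with 5 negative and 10 positive and 0 called by DESeq2. Among 10 genes of fatty acid binding and PPAR signalling, 5 were negative and 5 positive. DESeq2 called 1 lower (2.88% of all genes), Ppard (log2 ratio -0.43, SE 0.12), a nuclear receptor for fatty acids that was named because it was called. That call held in 1 of 6 fits with 1 library left out, the one without Apoe recipient 2, and not with the replicate block (adjusted p = 0.462). Of 8 receptors and partners of osteopontin, 6 were negative, with a median log2 ratio of -0.18 and 0 called by DESeq2. Cd44, a receptor for osteopontin and hyaluronan, stood at 94.6, 162 and 72.6 CPM in Sept2C111A recipients, against 862, 135 and 189 CPM in Apoe recipients, and its log2 ratio of -1.85 (SE 0.76) was -0.55 without Apoe recipient 1.

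**Figure D5:**
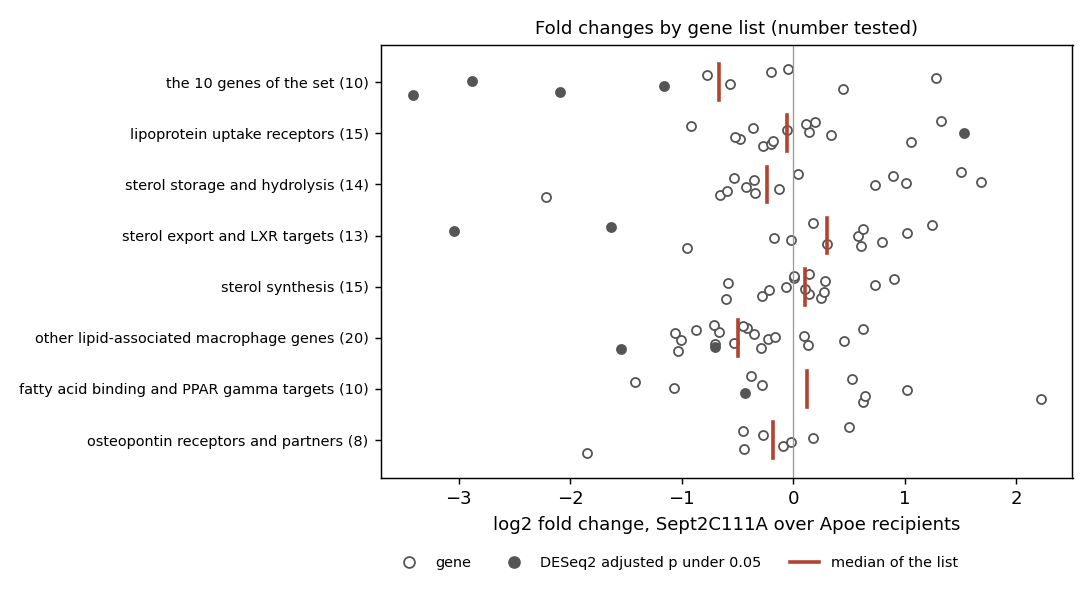
Log2 ratios, Sept2C111A over Apoe recipients, of the 10 genes of the set and of the genes tested in 7 lists of lipid handling, with the number tested in brackets. Each circle is a gene, filled where DESeq2 gave an adjusted p under 0.05, and the red bar is the median of the list. The filled circles lie below 0 except for Scara5, and the medians run from -0.67 to 0.30.

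The genes whose profile over the 6 libraries came closest to that of each gene were found by the root mean square difference of centred log2 levels, among 12751 others with a mean count of at least 50. For Spp1 the closest was Slc40a1, the iron exporter ferroportin, at a difference of 0.19 where Spp1 itself spanned 4.21 on the log2 scale. For Msr1 it was Rnf149 at 0.15, followed at rank 3 by Slc11a1, the phagosomal metal transporter NRAMP1, at 0.18. Olr1 was closest to A530064D06Rik at 0.21 and Soat1 to Dna2 at 0.05. Lgals3 lay nearest Arhgdib at 0.05, with Cyba, a subunit of the phagocyte oxidase, at rank 3 with 0.12. Abca1 lay nearest Naip6 at 0.07, and Cd9 nearest Stk26 at 0.06. Gpnmb had the largest distance to its nearest gene: Slco2b1 at 0.41 was followed by the MHC class II genes H2-Eb1 at 0.42 and H2-Aa at 0.43. The distances are not scaled to the span of each gene, which was 3.41 for Gpnmb and 1.51 for Fabp5. Cd36 was nearest to Pecam1, an endothelial marker, at 0.09, and Fabp5 to Scarf1, a scavenger receptor of endothelium and macrophages, at 0.16. Within the set the closest pair was Lgals3 and Abca1, at 0.20, and the most distant was Gpnmb and Olr1, at 2.47. With 6 libraries many genes can share a profile, and these distances are a description.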

How the data were processed

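RNA of 6 whole aortas, 3 per group, was measured by sequencing of poly(A)-selected libraries, per the labels' protocols. The files were deposited as unnormalised expected counts for each gene, and the submitters' processing notes name RSEM 1.3.1, Bowtie2, DESeq2 1.4.5 and mm10. Neither the annotation nor strandedness is given in the sources used here, so reads from genes that overlap on opposite strands cannot be told apart. In 1 Sept2C111A file the column heading carries another library number, and the file was assigned as GEO records it.

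Expected counts were rounded and tested in R 4.3.3 with edgeR 4.0.16 (filterByExpr with a minimum count of 10, TMM, two-sided quasi-likelihood F test, Benjamini-Hochberg adjustment over 14466 genes). Each SE is the absolute log2 fold change over the square root of F. DESeq2 1.42.0, run on the same genes, and limma 3.58.1 (voom with quality weights) were alternatives. Coordinates and exon lengths are from GENCODE vM21 on the same build. The labels do not say that sample numbers pair the mice, and the main fit used no pairing. Deviations of same-numbered libraries correlated at 0.02, 0.13 and -0.17, which cannot settle whether they are paired. The genes, lists and alternatives were chosen with earlier results of these data known. Named are the 10 genes, 17 context genes fixed by name (some are not reported here), and the 3 nearest profiles, of which some are printed, and other genes were picked with their values known. The edgeR and DESeq2 tests were also run on simulated counts. Those were drawn with dispersions that edgeR estimated and with no library set apart in cell content. They do not settle why the calls of edgeR and DESeq2 differ here.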

Additional observations from a re-analysis of the deposited data

How the results depend on the processing

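Of 14 alternative fits, only DESeq2 called any of the 10 genes. It called 4 of the 10 genes lower. In the other lists it called 1 uptake receptor higher, and 2 further macrophage genes and 1 fatty acid gene lower. It also called 2 genes lower from the list of sterol export and LXR targets, Arl4c and Apoc2. Over all genes it called 417 lower and 158 higher, where edgeR called 0. In edgeR, other library scalings, filters, the replicate block and each left-out library gave 0 calls, as did limma-voom, among the 10 genes. With the replicate block, edgeR called 0 and DESeq2 called 4 lower (2.65% of all genes). Leaving out 1 library at a time, DESeq2 called between 2 and 5 of the 10 lower and between 0 and 1 higher. The 2 came without Apoe recipient 1 and without Sept2C111A recipient 3, the 5 (with Lgals3) without Apoe recipient 2, and the 1 higher (Cd36) without Sept2C111A recipient 2. Without Apoe recipients 1 and 3 together, the DESeq2 log2 ratios were -2.17 for Spp1, -1.91 for Olr1, -0.72 for Msr1 and -0.61 for Soat1. That fit had a single Apoe library whose spread is assumed to be that of the other group, so its calls are not given. These DESeq2 refits were chosen after seeing the data.

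The sign of 8 genes held in all 14 fits. Cd9 turned to 0.0447 with the replicate block and to 0.0157 without Apoe recipients 1 and 3, and ran from -0.31 to 0.33 with 1 library left out. Fabp5 was 0.0004 by limma-voom (adjusted p = 1.00) and ran from -0.48 to 0.15 with 1 library left out. The cause was not tested. Relative to macrophage genes, the signs of Spp1, Olr1, Msr1, Soat1, Gpnmb, Cd36 and Cd9 held under 9 alternatives (Csf1r or Cd68 alone, a pseudocount of 0.1, each library left out), and 5 values of Fabp5, Lgals3 and Abca1 turned, and with Cd68 alone the Soat1 difference was -0.23 against -0.65. Depth limits Olr1 most, at 19 to 40 reads per Sept2C111A library.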

Other observations

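Several genes outside the set had their highest value in Apoe recipient 1. Soat2, the second cholesterol acyltransferase, which is known from liver and intestine, stood at 1.94, 1.77 and 2.05 CPM in Sept2C111A recipients and at 21.2, 2.67 and 2.99 CPM in Apoe recipients. Cd14 stood at 37.1, 34.3 and 30.4 CPM in Sept2C111A recipients and at 477, 34.4 and 53.9 CPM in Apoe recipients. Hilpda, a droplet protein that restrains lipolysis, stood at 7.04, 6.52 and 8.57 CPM in Sept2C111A recipients and at 30.9, 8.36 and 20.0 CPM in Apoe recipients, so Apoe recipient 2 lay inside the Sept2C111A range. These genes were named after their values were seen.

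Residual Apoe counts, from the gene disrupted in all mice, were at 18.7, 13.6 and 29.6 CPM in Sept2C111A recipients and at 9.54, 14.1 and 11.97 CPM in Apoe recipients. Fabp3, the heart-type fatty-acid-binding protein, stood at 36.9, 14.98 and 134 CPM in Sept2C111A recipients and at 23.2, 13.8 and 2.89 CPM in Apoe recipients, and its highest value came from the library with heart muscle transcripts.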
